A study of Mus musculus with 7 samples.

Results

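The genes of homologous recombination and of the DNA damage checkpoint were followed in B-cell precursor (BCP) cells of the Eμ-Ret mouse. The set held 33 genes of the Fanconi anemia, homologous recombination and ATM/ATR pathways. They were chosen by name and not by a cut-off on measured values, but with earlier results of these data known. All 33 were among the 24341 genes of the deposited table, and all 33 were among the 10541 genes that passed the filter on low values, a sum of at least 10 over the 7 samples. Values are FPKM, the number of sequenced fragments scaled to transcript length and to sequencing depth, so that levels can be set side by side between genes.

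The cells came from spleen and, per the deposited protocol, were sorted, and their mRNA was sequenced. For its in vitro work, the study describes leukemic spleen cells as mostly used without enrichment. All 7 samples came from animals hemizygous for the Emu-Ret transgene on a BALB/c background, and no treatment was given. The 4 preleukemic samples came from young, healthy animals and the 3 leukemic samples from older, moribund animals with overt disease. The transgene is an oncogenic Ret fusion driven by the enhancer of the immunoglobulin heavy chain, which drives it in B-lineage cells. Both groups carried it, and no transgene-negative cells were sequenced. Stage and age therefore cannot be told apart, the sexes were mixed, and exact ages of these animals were not given in the sources used here. The labels give no link between animals of the groups, and each sample was taken as a separate library.

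Homologous recombination repairs broken DNA by copying the intact sister chromatid, and so works in cells that are replicating or have replicated their DNA. The MRE11-RAD50-NBN complex and CtIP (encoded by Rbbp8) trim the broken ends, BRCA1, BARD1, PALB2 and BRCA2 prepare them for pairing with the intact copy, and XRCC2, XRCC3, RAD54 and BLM help to form and resolve the joined molecules. The Fanconi anemia proteins handle crosslinks between the DNA strands, and the kinases ATM and ATR, with their effectors CHK2 and CHK1, halt the cell cycle while repair proceeds. B-cell precursors divide rapidly between the steps that break and rejoin DNA at their immunoglobulin loci. Transcription of many of the genes is known to follow the cell cycle.

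The libraries held an estimated 13.4 to 16.0 M fragments. At the lowest value found among the 33 genes, 1.77 FPKM, a transcript of 1500 bases would be represented by 35.6 fragments, a counting error of 16.8%, and at 10 FPKM by 201 fragments, an error of 7.1%. Of 15 B-cell precursor genes, 4 (Vpreb1, Igll1, Pax5 and Ebf1) were lower in leukemic samples and none was at the floor of the table, 0.01 FPKM. Their summed level was 3593 to 5447 FPKM in leukemic and 6632 to 8287 FPKM in preleukemic samples. Enpep, which encodes the sorting marker BP-1, was at 19.1, 102 and 77.2 FPKM in leukemic samples and 134 to 210 FPKM in preleukemic samples (adjusted p = 0.0688, limma with Benjamini-Hochberg adjustment). Markers of other cells were also present. All 16 red cell precursor genes tested were higher in leukemic samples, with sums of 5782 to 26610 FPKM against 425 to 2844 FPKM, and preleukemic 1 alone made up the upper end. For macrophages 8 of 10 tested genes were higher (sums of 168 to 386 against 38.0 to 89.4 FPKM), and for neutrophils 4 of 8 (1402 to 1730 against 147 to 851 FPKM). For T and NK cells 0 of 6 were called by limma, although 2 were higher at an unadjusted p under 0.05 (11.5 to 66.1 against 7.30 to 14.5 FPKM), and for mature B and plasma cells 1 of 6 (Jchain) was higher (155 to 264 against 117 to 165 FPKM). Beside these counts, 8.47% of all genes tested were called higher and 6.26% lower. Of all markers, only Hbb-bs was at the floor, in every sample. The part these cells play in the values of the 33 genes was not tested. In bulk samples, fewer cells of a type and less RNA per cell cannot be told apart.

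Most of the 33 genes were somewhat higher in leukemic cells, but few passed the test. With limma on log2(FPKM + 1) and Benjamini-Hochberg adjustment over the 10541 genes, 3 were called higher at an adjusted p under 0.05, namely Chek2, Nbn and Fance. Over all genes tested 8.47% were called higher, so this count was close to that of the table as a whole. Of the 33, 0 were called lower, beside 6.26% of all genes tested, and 1 (Fancm) was lower at an unadjusted p under 0.05, as were 17.5% of all genes. At that unadjusted threshold 7 of the 33 were higher, beside 16.5% of all genes. The groups did not overlap for 7 of the 33 genes (Fance, Palb2, Rad51b, Mre11a, Nbn, Chek2 and Topbp1), all of them higher in leukemic samples, beside 14.9% of all genes, and for 0 of the 33 in the other direction, beside 17.1% of all genes.

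The log2 fold change, leukemic minus preleukemic, was above 0 for 29 of the 33 genes as deposited (47.9% of all genes tested) and for 21 of the 33 after each sample was scaled to the same total. The median was 0.29 over the 33 genes and -0.02 over all genes tested. The deposited values sum to 507355 to 539887 FPKM in leukemic and 448022 to 471447 FPKM in preleukemic samples, so scaling to a common total (TPM) moves the median of all genes to -0.18. The 33 genes then had a median of 0.16, which lies 0.34 above that of all genes, against 0.31 as deposited. The scaling also turned the calls over the whole table from 893 higher and 660 lower to 686 higher (6.51%) and 2231 lower (21.2%), with Chek2 higher and Fancm lower among the 33 genes. Quantile normalization gave 754 higher (7.15%) and 907 lower (8.6%), with 3 of the 33 genes higher and 0 lower by limma. Leaving out leukemic 1 lowered the median of the 33 genes to 0.15, and leaving out leukemic 3 raised it to 0.45.

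**Figure D1:**
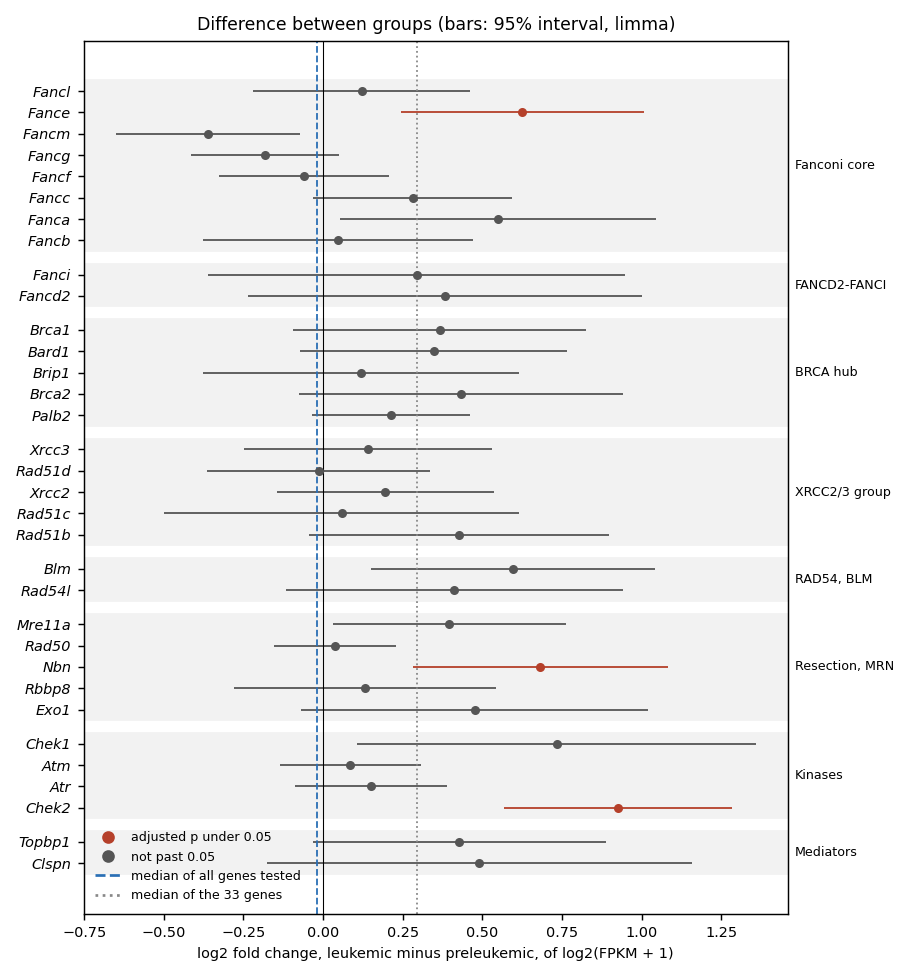
Log2 fold change of log2(FPKM + 1), leukemic minus preleukemic, for each of the 33 genes grouped by role, with 95% confidence intervals from limma (bars). Red marks the 3 genes with an adjusted p under 0.05 (Chek2, Nbn and Fance), the dashed line the median of all genes tested (-0.02) and the dotted line the median of the 33 genes (0.29). Of the 29 points above 0, 8 fall below it after scaling to a common total.

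Of the 33 genes, Chek2 had the largest log2 fold change and the smallest adjusted p. Chek2 encodes CHK2, which ATM switches on at broken DNA and which acts on CDC25 phosphatases and p53. Chek2 was at 14.3, 12.6 and 12.5 FPKM in leukemic 1 to 3 and at 8.55, 5.89, 6.43 and 5.23 FPKM in preleukemic 1 to 4. Every leukemic sample lay above every preleukemic sample, and the nearest of the latter was preleukemic 1. The means were 13.1 ± 1.03 FPKM (SD, n = 3) and 6.53 ± 1.43 FPKM (SD, n = 4), a 2.01-fold ratio, and the log2 fold change was 0.93 (SE 0.15, adjusted p = 0.0152, limma with Benjamini-Hochberg adjustment). The call was kept without 5 of the 7 samples in turn. It was lost without preleukemic 3 (adjusted p = 0.0528, limma) and without preleukemic 4 (adjusted p = 0.0534, limma), with log2 fold changes of 0.93 and 0.84.

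Chek2 lies at chr5:110839979-110874145 on the forward strand (GRCm38, GENCODE annotation). Its start faces that of Hscb, which encodes a co-chaperone of iron-sulfur cluster assembly, 202 bases away on the opposite strand. Hscb was also called higher, with a log2 fold change of 0.34 (SE 0.09, adjusted p = 0.0445, limma). The 201 bases between both starts are shown because they border both genes called higher. They lie upstream of Chek2 at chr5:110839778-110839978 (GRCm38.p6, RefSeq, forward strand), with capitals marking a GCGGGAA run, the reverse complement of the E2F-like letters TTCCCGC, and 2 ATTGG runs, the reverse complement of CCAAT.
Chek2-Hscb: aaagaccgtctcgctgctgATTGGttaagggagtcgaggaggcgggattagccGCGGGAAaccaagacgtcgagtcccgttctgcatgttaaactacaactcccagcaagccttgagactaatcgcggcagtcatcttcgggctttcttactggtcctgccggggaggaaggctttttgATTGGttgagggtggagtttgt

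Atm, the kinase upstream of CHK2, overlapped between the groups where Chek2 did not. Atm was at 14.4, 12.1 and 13.3 FPKM in leukemic samples and at 11.2, 13.5, 12.6 and 12.4 FPKM in preleukemic samples (log2 fold change 0.09, 95% confidence interval -0.14 to 0.31). Within each sample, the ratio of Chek2 to Atm was 0.998, 1.04 and 0.938 in leukemic samples and 0.761, 0.438, 0.510 and 0.421 in preleukemic samples. The ratio did not overlap between the groups, a comparison that needs no scaling between samples.

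Chek1 encodes CHK1, the effector of ATR, which restrains entry into mitosis while DNA is being replicated. Chek1 was at 28.4, 18.1 and 13.7 FPKM in leukemic samples and at 14.4, 8.36, 13.2 and 9.66 FPKM in preleukemic samples. Leukemic 3 lay within the preleukemic range and leukemic 1 far above it. The log2 fold change was 0.73 (SE 0.27, adjusted p = 0.103, limma). Without leukemic 1 it was 0.46, and without leukemic 3 it was 0.96. Atr itself ranged from 10.8 to 14.1 FPKM in leukemic samples and from 10.5 to 11.8 FPKM in preleukemic samples (log2 fold change 0.15, 95% confidence interval -0.09 to 0.39). The ratio of Chek1 to Atr was 1.11 to 2.02 in leukemic and 0.708 to 1.37 in preleukemic samples, and these ranges overlapped.

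Among the mediators that pass the signal to these kinases, Topbp1 was the most abundant of the 33 genes. TOPBP1 activates ATR at stalled replication forks. Topbp1 was at 126, 71.0 and 73.1 FPKM in leukemic samples and at 67.1, 60.4, 67.3 and 62.8 FPKM in preleukemic samples. The groups did not overlap, but leukemic 2 and 3 exceeded the highest preleukemic sample by little and leukemic 1 stood far above all others. The means were 90.1 ± 31.3 FPKM (SD, n = 3) and 64.4 ± 3.38 FPKM (SD, n = 4), and the log2 fold change of 0.43 (SE 0.20) did not pass the test (adjusted p = 0.171, limma). The start of Topbp1 faces that of 1300017J02Rik 133 bases away, which was called higher, with a log2 fold change of 3.13 (SE 0.56, adjusted p = 0.0172, limma). Clspn, whose product claspin holds CHK1 for activation by ATR, ranged from 17.8 to 35.4 FPKM in leukemic and from 11.0 to 21.3 FPKM in preleukemic samples, with overlap (log2 fold change 0.49, 95% confidence interval -0.18 to 1.16).

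**Figure D2:**
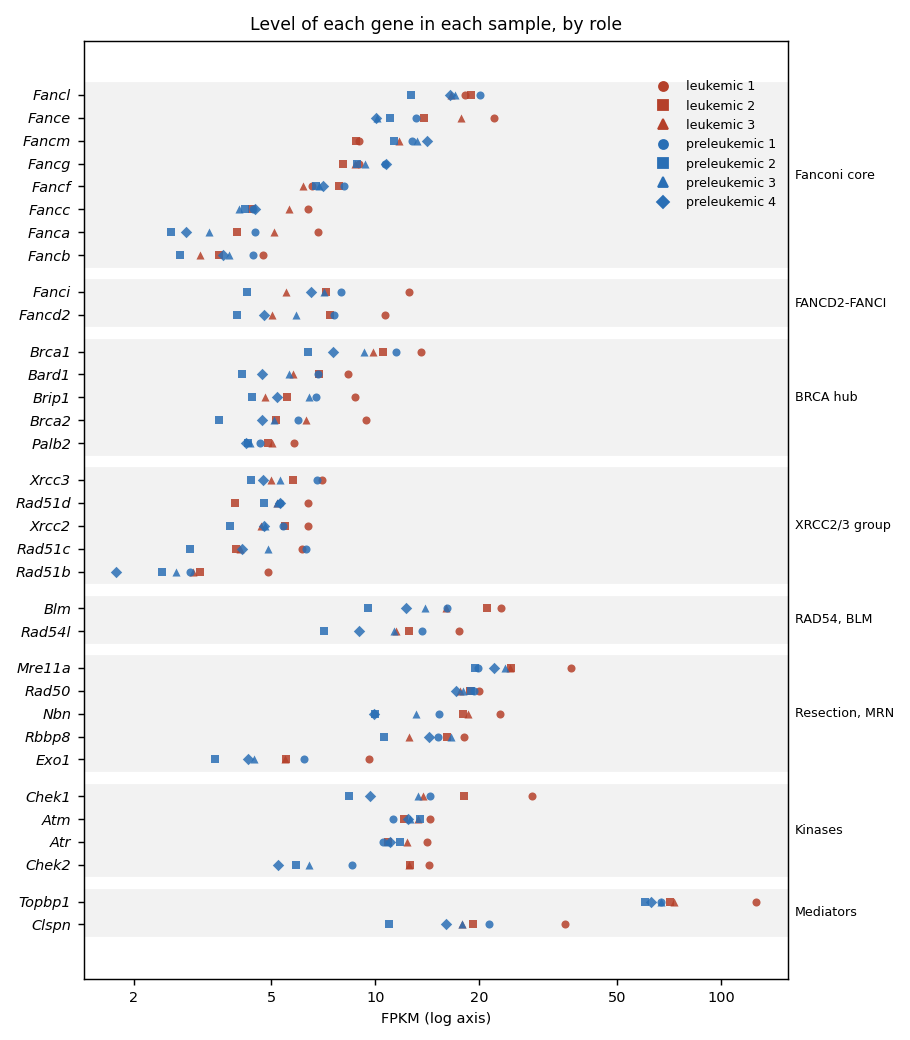
Level of each of the 33 genes in each sample in FPKM, on a log axis, grouped by role and coloured by group (red leukemic, blue preleukemic), with a marker shape for each replicate number. Chek2, Nbn and Fance show red points to the right of all blue points, and Topbp1 lies at 60.4 to 126 FPKM while Rad51b lies at 1.77 to 4.89 FPKM.

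The complex that first binds broken ends showed unequal differences between its subunits. Nbn encodes NBN (nibrin), the subunit that recruits ATM. Nbn was at 23.0, 17.9 and 18.5 FPKM in leukemic samples and at 15.3, 9.97, 13.1 and 9.90 FPKM in preleukemic samples. All leukemic samples were above all preleukemic samples. The means were 19.8 ± 2.77 FPKM (SD, n = 3) and 12.1 ± 2.63 FPKM (SD, n = 4), a 1.64-fold ratio, and the log2 fold change was 0.68 (SE 0.17, adjusted p = 0.0396, limma with Benjamini-Hochberg adjustment). This call held without preleukemic 1 (adjusted p = 0.0309, limma) and was lost when any of the other 6 samples was left out, where the adjusted p from limma was 0.0832, 0.0513 and 0.0612 without leukemic 1, 2 and 3 and 0.0919, 0.0821 and 0.110 without preleukemic 2, 3 and 4. Nbn lies at chr4:15957925-15992589 on the forward strand (GRCm38, GENCODE).

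Rad50 encodes the ATPase that tethers the ends. Rad50 was at 20.0, 18.8 and 17.6 FPKM in leukemic samples and at 19.3, 18.9, 18.0 and 17.1 FPKM in preleukemic samples (log2 fold change 0.04, 95% confidence interval -0.16 to 0.23). Its highest value was 1.14-fold its lowest in leukemic and 1.13-fold in preleukemic samples. The ratio of Nbn to Rad50 was 1.15, 0.949 and 1.05 in leukemic samples and 0.792, 0.529, 0.731 and 0.580 in preleukemic samples, without overlap.

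Mre11a, which encodes the nuclease of the complex, was the most abundant of the end-processing genes. Mre11a was at 36.8, 24.7 and 24.6 FPKM in leukemic samples and at 19.8, 19.4, 23.8 and 22.0 FPKM in preleukemic samples. The groups did not overlap, although leukemic 2 and 3 were within 1 FPKM of preleukemic 3, and the log2 fold change of 0.40 (SE 0.16) did not pass the test (adjusted p = 0.124, limma). Exo1, a nuclease that extends the trimmed ends, ranged from 5.48 to 9.59 FPKM in leukemic and from 3.42 to 6.20 FPKM in preleukemic samples (log2 fold change 0.48). Rbbp8, encoding CtIP, ranged from 12.5 to 18.1 FPKM and from 10.6 to 16.5 FPKM (log2 fold change 0.13). Both overlapped between the groups.

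The Fanconi core complex was the role group with members on both sides of 0. It is an 8-gene group here whose products together attach ubiquitin to FANCD2 and FANCI. Of its genes, 5 had a positive and 3 a negative log2 fold change, with a median of 0.08, and after scaling to a common total 3 were positive and the median was -0.06. The leading gene was Fance, whose product links the complex to FANCD2. Fance was at 22.0, 13.8 and 17.7 FPKM in leukemic samples and at 13.1, 11.0, 10.1 and 10.0 FPKM in preleukemic samples. The groups did not overlap, and leukemic 2 lay closest to the preleukemic samples. The means were 17.8 ± 4.09 FPKM (SD, n = 3) and 11.1 ± 1.43 FPKM (SD, n = 4), a 1.61-fold ratio, and the log2 fold change was 0.63 (SE 0.16, adjusted p = 0.0445, limma with Benjamini-Hochberg adjustment). The call held without leukemic 2 (adjusted p = 0.0218, limma) and was lost without leukemic 1 or 3 (adjusted p = 0.0780 and 0.0790, limma) and without preleukemic 1, 2, 3 or 4 (adjusted p = 0.0531, 0.0978, 0.115 and 0.125, limma). Fance lies at chr17:28313519-28326572 on the forward strand (GRCm38, GENCODE).

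Fancm had the most negative log2 fold change of the 33 genes. FANCM is the translocase that anchors the core complex to DNA. Fancm was at 8.95, 8.80 and 11.7 FPKM in leukemic samples and at 12.8, 11.3, 13.2 and 14.1 FPKM in preleukemic samples. Leukemic 3 lay just above preleukemic 2, so the groups overlapped by this pair. The log2 fold change was -0.36 (SE 0.12, adjusted p = 0.0888, limma), and it was called lower without leukemic 3 (-0.48, adjusted p = 0.0388, limma) and after scaling to a common total (-0.54, adjusted p = 0.0258, limma). The ratio of Fancm to Fance was 0.407, 0.638 and 0.662 in leukemic samples and 0.977, 1.03, 1.31 and 1.40 in preleukemic samples, without overlap.

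Of the other core genes, Fancl, which encodes the ubiquitin ligase, had the highest mean level. Fancl was at 18.1, 18.9 and 16.6 FPKM in leukemic samples and at 20.1, 12.7, 16.9 and 16.4 FPKM in preleukemic samples, with overlap and a log2 fold change of 0.12 (SE 0.15, adjusted p = 0.580, limma). The adaptor gene Fancf (6.17 to 7.86 against 6.71 to 8.09 FPKM, log2 fold change -0.06) was similar in both groups. Fancg (8.08 to 8.95 against 8.86 to 10.7 FPKM, log2 fold change -0.18) overlapped only through leukemic 1 and preleukemic 2. It did not pass the test (adjusted p = 0.231, limma), nor after scaling to a common total (-0.35, adjusted p = 0.0504, limma). Fanca (3.97 to 6.82 against 2.56 to 4.49 FPKM) had a log2 fold change of 0.55, Fancc (4.40 to 6.40 against 4.04 to 4.48 FPKM) of 0.28 and Fancb (3.10 to 4.72 against 2.71 to 4.41 FPKM) of 0.05, and none of the 3 passed the test. The ratio of Fance to Fancf, whose products sit together in the complex, was 1.76 to 3.36 in leukemic and 1.42 to 1.64 in preleukemic samples, without overlap. Genes on the opposite strand overlap 18.6% of the exon bases of Fancc, 15.0% of those of Fancf, 13.7% of those of Fancl and 10.5% of those of Fanca. The kit marks strand, but whether the counting used it was not given in the sources used here.

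FANCD2 and FANCI are the targets of the core complex. Fanci was at 12.5, 7.17 and 5.52 FPKM in leukemic samples and at 7.94, 4.25, 7.09 and 6.50 FPKM in preleukemic samples. Leukemic 1 was highest, and leukemic 3 fell below 3 of the 4 preleukemic samples. The log2 fold change was 0.29 (SE 0.28, adjusted p = 0.479, limma). Fancd2 ranged from 5.02 to 10.7 FPKM in leukemic and from 3.98 to 7.60 FPKM in preleukemic samples (log2 fold change 0.38). The ratio of Fancd2 to Fanci was 0.853 to 1.03 in leukemic and 0.733 to 0.957 in preleukemic samples.

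The genes around BRCA1 and BRCA2 had log2 fold changes of 0.12 to 0.43, and 0 of 5 were called by limma at an adjusted or an unadjusted p under 0.05. Brca1 was at 13.6, 10.5 and 9.85 FPKM in leukemic samples and at 11.4, 6.38, 9.29 and 7.56 FPKM in preleukemic samples. Preleukemic 1 lay above leukemic 2 and 3, and the log2 fold change was 0.37 (SE 0.20, adjusted p = 0.227, limma). Bard1, whose product pairs with BRCA1 as a ubiquitin ligase, ranged from 5.78 to 8.30 FPKM and from 4.11 to 6.81 FPKM (log2 fold change 0.35). The ratio of Brca1 to Bard1 was 1.62 ± 0.088 (SD, n = 3) in leukemic samples, and in preleukemic samples it was 1.62 ± 0.057 (SD, n = 4), while Brca1 itself differed 1.79-fold between preleukemic samples. Palb2, the bridge between BRCA1 and BRCA2, was at 5.79, 4.87 and 5.03 FPKM in leukemic samples and at 4.64, 4.28, 4.34 and 4.22 FPKM in preleukemic samples, without overlap but with a log2 fold change of only 0.21 (SE 0.11, adjusted p = 0.200, limma). Brca2 (5.15 to 9.39 against 3.51 to 5.97 FPKM, log2 fold change 0.43) and the helicase gene Brip1 (4.80 to 8.73 against 4.38 to 6.71 FPKM, log2 fold change 0.12) overlapped between the groups.

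Rad51b, Rad51c, Rad51d, Xrcc2 and Xrcc3, whose products form complexes that assist strand exchange, were among the scarcest of the 33 genes, and 0 of 5 were called by limma at an adjusted or an unadjusted p under 0.05. Xrcc3, with the highest mean level of the 5, was at 6.99, 5.77 and 4.98 FPKM in leukemic samples and at 6.78, 4.35, 5.30 and 4.72 FPKM in preleukemic samples (log2 fold change 0.14, SE 0.17, adjusted p = 0.570, limma). Rad51b was the scarcest of all, at 4.89, 3.12 and 2.96 FPKM against 2.90, 2.41, 2.64 and 1.77 FPKM. Its groups did not overlap, but leukemic 3 and preleukemic 1 were nearly level and the log2 fold change of 0.43 (SE 0.20) did not pass the test (adjusted p = 0.180, limma). Rad51c (3.96 to 6.13 against 2.91 to 6.30 FPKM), Rad51d (3.93 to 6.37 against 4.77 to 5.31 FPKM) and Xrcc2 (4.66 to 6.39 against 3.80 to 5.40 FPKM) had log2 fold changes of 0.06, -0.01 and 0.20.

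Blm and Rad54l act after strand invasion, BLM as a helicase that takes joined molecules apart and RAD54 as a motor that moves along DNA. Blm was at 23.0, 21.0 and 16.0 FPKM in leukemic samples and at 16.2, 9.51, 13.9 and 12.3 FPKM in preleukemic samples. The groups overlapped only through leukemic 3 and preleukemic 1. The log2 fold change was 0.60 (SE 0.19, adjusted p = 0.0749, limma). Rad54l ranged from 11.5 to 17.4 FPKM in leukemic and from 7.07 to 13.6 FPKM in preleukemic samples (log2 fold change 0.41, SE 0.23).

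**Figure D3:**
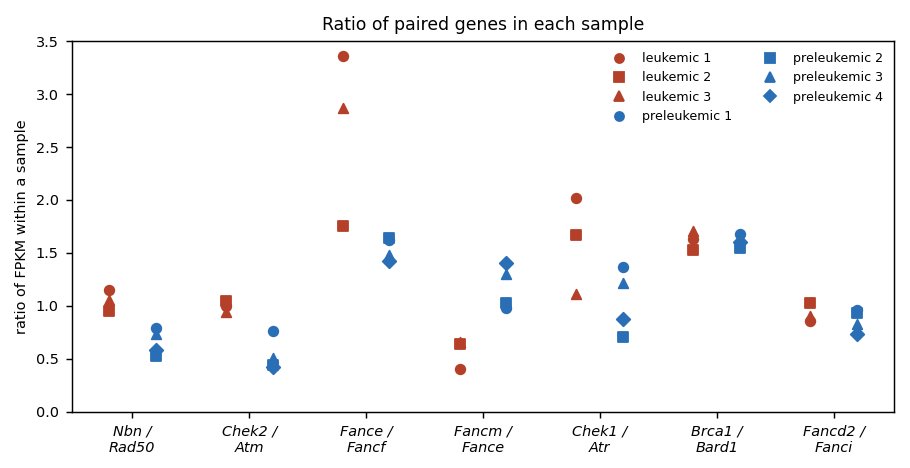
Ratio of the FPKM of 2 genes within each sample (y axis, no unit) for 7 gene pairs of related function, red for leukemic and blue for preleukemic samples. The ratios of Nbn to Rad50, of Chek2 to Atm and of Fance to Fancf are higher in every leukemic than in every preleukemic sample. That of Fancm to Fance is lower in every leukemic sample, and those of Brca1 to Bard1, Fancd2 to Fanci and Chek1 to Atr overlap. Ratios of Mre11a to Rad50, Topbp1 to Atr and Brca2 to Palb2 were also computed, overlapped and are not drawn. Every ratio without overlap holds Chek2, Nbn or Fance, the genes called higher. How often ratios of other gene pairs separate the groups was not examined.

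Beyond the group difference, many of the 33 genes went up and down together from sample to sample, a pattern looked for after their values were seen. Among preleukemic samples, preleukemic 1 was the highest for 24 of the 33 genes (24.8% of all genes tested) and preleukemic 2 the lowest for 24 (32.8% of all genes). The whole order of preleukemic 1, 3, 4 and 2 from high to low held for 17 of 33 genes, or 51.5%, beside 7.52% of all genes. Other genes departed from it, as Atm and Atr, which were highest in preleukemic 2 of the preleukemic samples. Preleukemic 1 was the highest for only 1 of the 5 genes on chromosome 9. Among leukemic samples, leukemic 1 was the highest for 30 of 33 genes, or 90.9%, beside 37.0% of all genes. The highest preleukemic value was a median of 1.57-fold the lowest over the 33 genes and 1.24-fold over all genes, and for leukemic samples these medians were 1.45 and 1.35.

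Genes of the cell cycle, many of which are transcribed with S phase or mitosis, showed the same order of samples. Of 19 genes of the G1/S transition, 19 had positive log2 fold changes, also under each of 3 other scalings, with a median of 0.54. Of these, 3 were called higher, Cdc6, Cdt1 and E2f1, beside 8.47% of all genes tested. The licensing factor genes Cdc6 and Cdt1 had log2 fold changes of 0.85 (SE 0.21, adjusted p = 0.0374, limma) and 0.95 (SE 0.24, adjusted p = 0.0412, limma), and E2f1, a transcription factor gene of this transition, of 0.71 (SE 0.18, adjusted p = 0.0411, limma). Of 16 genes of G2 and mitosis, 16 were positive under the same scalings, with a median of 0.52, and 1 was called, Mki67, which encodes the proliferation marker Ki-67 (0.74, SE 0.17, adjusted p = 0.0316, limma). The order of preleukemic 1, 3, 4 and 2 held for 18 of the 19 and 14 of the 16 genes.

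The mean log2(FPKM + 1) of the 33 genes was 3.76, 3.38 and 3.34 in leukemic samples and 3.42, 2.98, 3.26 and 3.14 in preleukemic samples. Preleukemic 1 thus lay above leukemic 2 and 3. The mean of the G1/S genes was 6.44, 6.00 and 5.81 in leukemic samples and 5.88, 5.04, 5.59 and 5.42 in preleukemic samples, and that of the G2 and mitosis genes was 6.47, 6.00 and 5.46 in leukemic samples and 5.74, 5.00, 5.64 and 5.47 in preleukemic samples. Preleukemic 1 was also the preleukemic sample with the most red cell precursor RNA, at 2844 FPKM against 425 to 449 FPKM in the other 3. Without preleukemic 1, Chek2 and Nbn were called (log2 fold changes 1.05 and 0.80) and the median of the 33 genes was 0.36. With both leukemic 1 and preleukemic 1 left out, Chek2 and Nbn were called (0.99 and 0.69) and the median was 0.18.

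The G1/S mean of each sample was then added to the fit as a covariate, a step chosen after the values were seen. The median of the 33 genes became -0.09, 13 of the 33 log2 fold changes were above 0, and 0 of the 33 were called by limma, as were only 3 genes of the whole table. Chek2 remained positive at 0.64 (adjusted p = 0.162, limma), Fance at 0.39, Nbn at 0.29 and the other kinase gene Chek1 at 0.05, and Fancm stayed at -0.34. Fancd2 and Fanci turned to -0.29 and -0.42. The G1/S mean overlapped between the groups only through leukemic 3 and preleukemic 1, so G1/S level and stage can hardly be told apart in these samples.

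**Figure D4:**
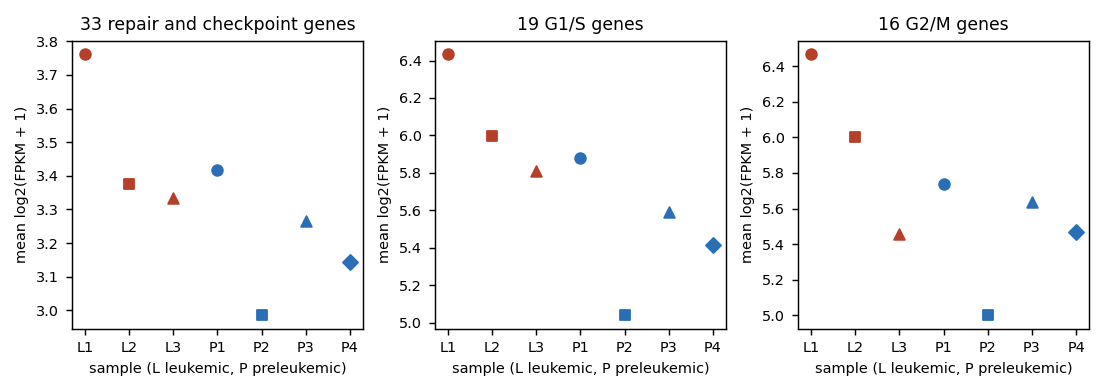
Mean of log2(FPKM + 1) in each sample (L, leukemic 1 to 3, red; P, preleukemic 1 to 4, blue) over the 33 repair and checkpoint genes (left), 19 G1/S genes (middle) and 16 G2 and mitosis genes (right). In each panel leukemic 1 is the highest and preleukemic 2 the lowest sample, and preleukemic 1 is the highest of the preleukemic samples.

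The promoters of the 33 genes were searched for letters that known regulators of cycle genes prefer. RefSeq windows on GRCm38.p6, from 250 bases before to 50 bases after the start, were matched for 26 of the 33 genes, and Fancd2, Rad51d, Xrcc2, Exo1, Rbbp8, Rad50 and Nbn had none. At least 1 of the E2F-like runs TTCCCGC, or else TTGGCGC, or else TTCGCGC, or else TTGCCGC was found on either strand for 16 of the 26 (61.5%), beside 1641 of 8128 genes tested (20.2%) and 8 of 16 G1/S genes. CCAAT was found for 65.4% of the 26 against 43.9% of all, GGGCGGG for 53.8% against 52.9%, CCGGAAG for 26.9% against 22.3% and TTTGAA for 7.7% against 14.0%, each on either strand, and a GGGCGGG run can share bases with GCGGGAA, the reverse complement of TTCCCGC. Median GC content was 58.8% in the 26 windows and 61.0% in all. A match in these windows is a run of letters, not a bound site.

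The matches below are shown for genes at both ends of the log2 fold change among those with a match. Chek2, Chek1, Blm, Clspn, Brca2 and Topbp1 had the highest values, and Fancf, Fancg and Fancm the lowest, all below 0. Each match is written along the strand of its gene, with the E2F-like run or its reverse complement in capitals. The positions on GRCm38.p6 are chr5:110839820-110839848 (Chek2, forward), chr9:36726609-36726626 (Chek1, reverse), chr7:80535123-80535151 (Blm, reverse), chr4:126556990-126557018 (Clspn, forward), chr5:150522442-150522470 (Brca2, forward), chr9:103305187-103305215 (Topbp1, forward), chr7:51862371-51862399 (Fancf, reverse), chr4:43010335-43010363 (Fancg, reverse) and chr12:65075538-65075566 (Fancm, forward). All lie upstream of the RefSeq start except those of Chek1 and Clspn, which lie 44 and 22 bases downstream of it.
Chek2: cgggattagccGCGGGAAaccaagacgtc
Chek1: agcaggttttgGCGGGAA
Blm: aatcatccttcTTGCCGCgcagagcgtgc
Clspn: accgcgtctggGCGCGAAagctcgaactt
Brca2: tttaggccacaGCGGGAAacagacacaca
Topbp1: ccgctcggttgGCGCGAAagtcggttccc
Fancf: gttcattttcaGCGCCAAtgtgccccgga
Fancg: ttcttttcagtTTCCCGCggaaccgtctc
Fancm: aaccaatcatcTTCCCGCcgcaaaatcgg

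Genes with and without the letters had much the same differences between the groups. The median log2 fold change was 0.32 for the 16 genes with a match and 0.34 for the 10 genes with a window and no match. The order of preleukemic 1, 3, 4 and 2 held for 10 of the 16 and for 4 of the 10. Chek2 and Fancm both carry a run of the same letters (GCGGGAA is the reverse complement of TTCCCGC), and their log2 fold changes were 0.93 and -0.36.

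The strain serves as a model of leukemia with gained chromosomes, so the 33 genes were also set beside their chromosomal neighbours. No copy number was measured in these libraries. The 33 genes lie on 13 chromosomes, with 6 on chromosome 11 and 5 on chromosome 9 (Atm, Atr, Chek1, Mre11a and Topbp1). Over 596 genes tested on chromosome 9, 78 (13.1%) were called higher and the median log2 fold change was 0.22. At an unadjusted p under 0.05 from limma, 188 of the 596 were higher. The 5 genes had a median of 0.40, with 0 called by limma and 2 (Chek1 and Mre11a) higher at that unadjusted threshold. Relative to the preleukemic mean and less the median of all genes, chromosome 9 stood at 0.32, 0.28 and 0.09 on the log2 scale in leukemic 1 to 3 and at -0.05 to 0.08 in preleukemic samples. Fance is the only 1 of the 33 on chromosome 17, where 199 of 592 genes tested (33.6%) were called higher with a median of 0.35, and chromosome 17 stood at 0.35, 0.35 and 0.40 in leukemic samples and at -0.05 to 0.09 in preleukemic samples. Chromosome 12, which holds Fancm, Rad51b and Xrcc3, had a median of -0.08 over 368 genes. For the 27 genes on neither chromosome 9 nor 17 the median was 0.28, with 2 called higher (Chek2 and Nbn). Over all 9353 genes tested off these chromosomes, the 27 included, the median was -0.05 and 616 were called higher.

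Other genes of the same pathways were given by a list of 69 genes in the table, all of which passed the filter. Of these, 3 were called higher and 2 lower, beside 8.47% and 6.26% of all genes tested. The median log2 fold change was 0.11, with 45 positive as deposited and 31 positive (median -0.04) after scaling to a common total. Of 30 further genes of homologous recombination, 1 was called, Fbxo18, which encodes a DNA helicase. Fbxo18 was at 17.2, 19.2 and 17.9 FPKM in leukemic and at 24.7, 21.7, 25.7 and 26.2 FPKM in preleukemic samples, without overlap (log2 fold change -0.42, SE 0.09, adjusted p = 0.0269, limma). Among 15 partners of the Fanconi proteins 0 were called by limma. At an unadjusted p under 0.05, 3 were higher and 2 lower, beside 16.5% and 17.5% of all genes tested. Their most abundant members were Usp1, whose product removes ubiquitin from FANCD2 (log2 fold change 0.25), and Stra13 (log2 fold change 0.40).

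Of 24 further checkpoint genes, 3 were called higher and 1 lower, beside 8.47% and 6.26% of all genes tested. Pkmyt1, which encodes a kinase that holds CDK1 inactive before mitosis, was at 36.5, 24.1 and 25.6 FPKM in leukemic samples and at 14.6, 9.06, 14.9 and 8.94 FPKM in preleukemic samples (log2 fold change 1.22, SE 0.23, adjusted p = 0.0191, limma). Cdc25a, whose phosphatase activates cyclin-dependent kinases and is a target of CHK1 and CHK2, was at 40.2, 32.1 and 32.5 FPKM against 26.2, 23.8, 26.8 and 23.5 FPKM (log2 fold change 0.46, SE 0.10, adjusted p = 0.0304, limma). Neither overlapped between the groups. Rnf8, a ubiquitin ligase gene of the response at breaks, had a log2 fold change of 0.52 (SE 0.10, adjusted p = 0.0200, limma). Trp53bp1 encodes 53BP1, which shields broken ends from trimming and so steers repair away from homologous recombination. It was at 9.03, 8.08 and 10.2 FPKM in leukemic and at 13.6, 15.3, 13.2 and 13.8 FPKM in preleukemic samples, without overlap (log2 fold change -0.57, SE 0.10, adjusted p = 0.0168, limma). Pkmyt1 and Rnf8 lie on chromosome 17 and Cdc25a on chromosome 9.

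**Figure D5:**
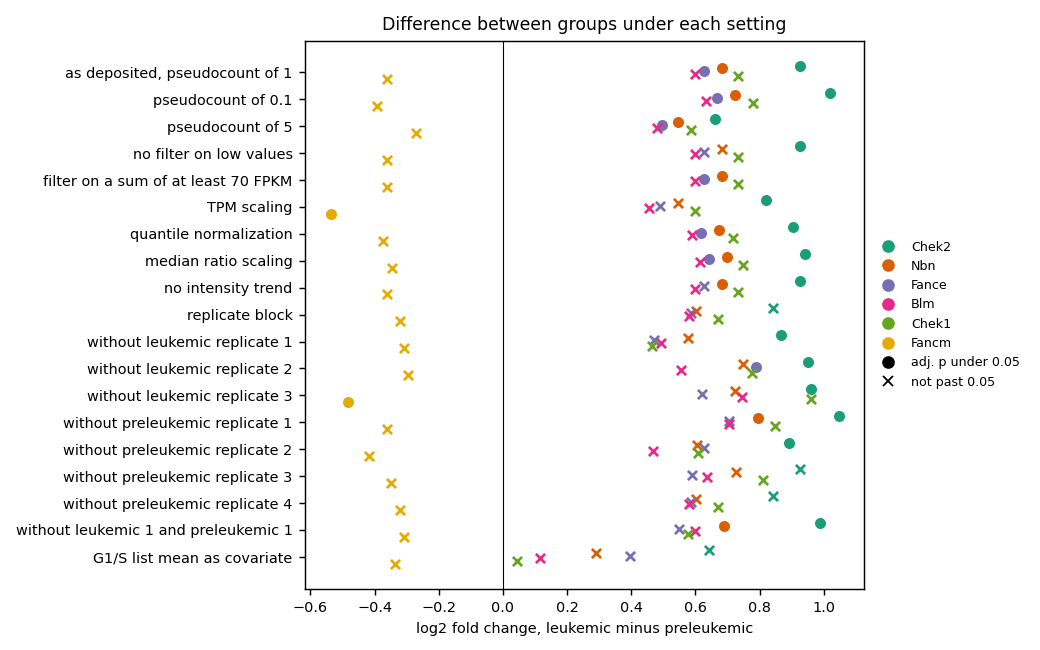
Log2 fold change, leukemic minus preleukemic, of Chek2, Nbn, Fance, Blm, Chek1 and Fancm under each way of processing (rows), with filled circles where the adjusted p from limma was under 0.05 and crosses where it was not. Chek2 stays between 0.64 and 1.05 and Fancm between -0.54 and -0.27, and the row with the G1/S mean as covariate brings Chek1 to 0.05. Chek2 has no point under the stricter filter because its sum is below 70 FPKM.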

How the data were processed

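RNA-seq of 3 leukemic and 4 preleukemic BCP samples was used, grouped by the labels. The authors deposited FPKM values for 24341 genes, with a floor of 0.01 FPKM. Per the labels, STAR 2.5.0b, bedtools 2.17.0, Cufflinks 2.2.1, Bowtie and DESeq2 were used with mm10, without stated roles. FPKM are not counts, so the study's count model was replaced by limma 3.58.1 (R 4.3.3, lmFit and eBayes with intensity trend, no covariate) on log2(FPKM + 1). The pseudocount of 1 understates fold changes of low genes. The filter (a sum of at least 10) and threshold (0.05) follow the study, with the sum taken over FPKM and Benjamini-Hochberg adjustment over 10541 genes. The p-values measure the spread between these samples only.

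On simulated data for the 10541 genes, 132 of 200 genes with a log2 change of 1 were recovered with 12 false calls, 0 of 200 with a change of 0.5, and 0 calls were made without a change. Depth was estimated from whole-fragment steps in the low values of 2243 genes that have 1 transcript, longer than 1500 bases. Between 77.6% and 82.4% of values were whole within 0.1 fragment, against 9.3% to 11.4% at other depths. Gene positions are from GENCODE vM21 (GRCm38) and promoter windows from RefSeq (GRCm38.p6). Ratios were computed in R, and motifs and figures were made in Python 3.11.15 with pandas 2.3.3, numpy 2.4.6 and matplotlib 3.10.9.

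The 33 genes and all lists were chosen with earlier results of these data known. All 33 are named, with full statistics for those called and for the most abundant of each role. Fancm, Rad51b, Palb2 and Rad50 are given in full because of their values. Of other lists, called genes are named (at most 4 a list), or else the 2 most abundant. Of the lists' genes, Uaf1, Hbb-b2, Ahsp, Ly6g and Ighd had no row. Alternatives were other pseudocounts (0.1, 5), filters (none, 70), scalings (TPM, quantile, median ratio), no trend, a replicate block and samples left out.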

Additional observations from a re-analysis of the deposited data

Results flagged for a closer look

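The summed level of 17 red cell precursor genes was 2844 FPKM in preleukemic 1 and 425 to 449 FPKM in the other 3 preleukemic samples, so that the gap to the nearest sample made up 0.99 of the group's range, above the critical value of 0.829 for 4 samples. This was the only such gap among 47 values examined in the preleukemic group, where chance gives about 5%, and none of the 33 repair and checkpoint genes showed one. Preleukemic 1 was also the highest preleukemic sample for 24 of the 33 genes. Whether red cell precursors contribute to those levels was not tested. Groups of 3 samples were not examined in this way.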

How the results depend on the processing

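The number of genes called over the whole table fell from 1553 to between 106 and 1506 when 1 sample was left out. Leaving out each sample in turn gave 0 to 2 of the 33 genes called higher and 0 to 1 called lower, a median log2 fold change of 0.15 to 0.45, 0 to 5 wider pathway genes higher and 0 to 4 lower, 0 to 5 cell cycle genes higher, and 6 to 95 genes of chromosome 9 higher (78 with all samples). Chek2 kept its call without 5 of 7 samples, and Nbn and Fance each without 1.

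Without a filter, 1 of the 33 genes (Chek2) and 1 cell cycle gene were called higher. With a filter at 70 FPKM, 50 genes of chromosome 9 were higher, fewer genes being tested, and 14 of the 33 genes were tested, Chek2 not among them. TPM scaling gave 1 of the 33 higher (Chek2) and 1 lower (Fancm), and 10 wider pathway genes lower. Without leukemic 1 and preleukemic 1 together, 1 wider pathway gene was higher and 1 lower, and 46 genes of chromosome 9 were higher. With the G1/S mean as covariate, every one of these counts was 0 and the median of the 33 genes reversed to -0.094. The cause of these shifts was not tested.

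The replicate numbers did not pair the samples: deviations from the group means of same-numbered samples correlated at 0.03, 0.05 and -0.09 over genes, and not every sample correlated best with its own number. With the replicate number as a block, which drops preleukemic 4, 0 genes of any kind were called (0 of the 33 genes, 0 wider pathway genes, 0 cell cycle genes and 0 genes of chromosome 9), with a median of 0.30 for the 33 genes.

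Single log2 fold changes changed sign, and not only those near 0. Under TPM scaling these were Fancb (-0.094), Fancl (-0.036), Brip1 (-0.024), Rad51c (-0.082), Rbbp8 (-0.024), Rad50 (-0.12), Atm (-0.071) and Atr (-0.0022). Under quantile normalization they were Fancb (-0.047) and Rad51c (-0.0067), and under median ratio scaling Rad51d (0.00017). Leaving out a sample gave ranges of -0.090 to 0.15 for Fancb, -0.15 to 0.0034 for Fancf, -0.0013 to 0.52 for Fanci, -0.099 to 0.27 for Brip1, -0.11 to 0.20 for Rad51c, -0.15 to 0.14 for Rad51d and -0.0067 to 0.082 for Rad50. Without both first samples, Fancb (-0.010), Fancf (0.018), Brip1 (-0.025) and Atm (-0.015) reversed. With the covariate, 16 of the 33 did: Fancb (-0.36), Fancd2 (-0.29), Fanci (-0.42), Fancl (-0.19), Brca1 (-0.14), Brca2 (-0.063), Bard1 (-0.088), Brip1 (-0.39), Rad51c (-0.54), Xrcc2 (-0.12), Xrcc3 (-0.24), Rad54l (-0.19), Exo1 (-0.094), Rbbp8 (-0.27), Rad50 (-0.036) and Clspn (-0.27). Of these, Clspn, Exo1, Brca2, Rad54l and Fancd2 were at 0.49, 0.48, 0.43, 0.41 and 0.38 as deposited. Over the alternatives, 507 single values of the 33 genes kept their direction and side of the threshold, 26 lost the call, 2 gained it and 40 reversed.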

Other observations

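Many repair genes share a start region with a neighbour. Of the 33 genes, 11 (33.3%) have a protein-coding gene starting within 1000 bases on the opposite strand and pointing away, beside 1125 of 9865 protein-coding genes tested (11.4%). The closest pair is Fancd2 with Emc3, 30 bases apart, with log2 fold changes of 0.38 and -0.05. Palb2 and Dctn5, 56 bases apart, had 0.21 and 0.01, Brca1 and Nbr1, 194 bases apart, had 0.37 and -0.06, and Atm and Npat, 307 bases apart, had 0.09 and 0.21. Rad54l and Pomgnt1, 150 bases apart, had 0.41 and -0.31. Fancb and Mospd2 had 0.05 and -0.16, Rad51b and Zfyve26 0.43 and -0.16, and Xrcc3 and Zfyve21 0.14 and 0.30. Of the 10 neighbours that were tested, those of Chek2 (Hscb) and Topbp1 (1300017J02Rik) were called higher, beside 8.47% of all genes tested.

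The deposited table gives some of the 33 genes a locus longer than the gene in GENCODE, as for Rad51c, with 971959 bases against 28310. How fragments of the other genes in such a stretch were assigned is not given in the sources used here.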
